A study of Mus musculus with 2 samples.

Results

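The spots described here are taken as ventricular myocardium of a mouse heart section. They were selected on the counts of 5 genes and not by position, and similar spots that failed a limit lie outside the set. A spot entered the set with at least 5000 counts in at least 200 features and at least 4 counts of Myl2 (ENSMUSG00000013936.13), the regulatory light chain of ventricular myosin. It also had no count of Myl7 or Sln, which mark atrial muscle, and at most 1 count of the beta-globin genes Hbb-bs and Hbb-bt together, which mark red blood cells. Of 4992 barcodes in the heart section, 2658 had at least 5000 counts, all with at least 200 features. Of these, 2018 had at least 4 counts of Myl2, 1947 of those had no count of Myl7 or Sln, and 1476 also met the globin limit. These 1476 Myl2 spots are 55.5% of the spots of at least 5000 counts, and the remaining 1182 are called other spots.

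The series holds 2 samples, a normal mouse heart and a normal mouse brain, each measured as 1 formalin-fixed, paraffin-embedded section of 5 µm by spRandom-seq, which copies total RNA in place with random primers onto an array of barcoded spots. The treatment label of both sections concerns the chemistry, an RT primer that lacks cell barcode 2, and the labels give no strain, age or sex. There is no second heart, and spots of 1 section are not replicates, so values are described without tests. A spot can hold several cells of different types, and in a spot fewer cells of a type and less RNA per cell cannot be told apart.

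The ventricular wall is built mainly of working cardiomyocytes, which contract through sarcomeres, release calcium from an internal store at each beat and draw most of their energy from the oxidation of fatty acids in a dense set of mitochondria. Atrial and ventricular muscle share most sarcomere proteins but use different myosin light chains, and atrial muscle stores natriuretic peptide for release into the blood. Kcnd2 encodes a pore-forming subunit of the channel behind the fast transient outward potassium current. In the mouse ventricle this current repolarizes the cell early in the action potential, and it is larger towards the outer wall than towards the cavity.

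Levels are given as CPM, counts per 1000000 counts outside nuclear and mitochondrial ribosomal RNA and outside the mitochondrial genome, computed on counts summed over a set of spots. A gene was called higher or lower where the ratio of CPM was at least 1.5, the higher set had at least 20 CPM and both sets together had at least 100 counts; genes that met both minimums are called tested. CPM is not divided by gene length, so levels are compared between sets for 1 gene and not between genes. All intervals are at 95% and cover counting error only. A log2 ratio was formed after 0.5 counts were added to each sum.

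The Myl2 spots held 24251625 counts, with a median of 13098.5 per spot (quartiles 9014.25 and 21611.5), and the other spots held 18301127 with a median of 11518.5. Myl2 spots had a median of 2727.5 features, against 3119.5 in other spots. The share of spots that entered the set was 48.9% at 5000 to 10000 counts, 60.5% at 10000 to 20000 and 57.8% at 20000 or more, so entry into the set moved with depth. In the heart section 90.6% of spots of at least 5000 counts had a Myl2 count (exact binomial interval 89.4 to 91.6), at a median of 12468.5 counts. In the brain section 0.814% of 2334 such spots had one (0.491 to 1.27), at a median of 9639 counts, and none reached 4. The heart and the brain section share all 4992 barcodes.

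Of the other spots, 542 had at least 4 counts of Myl2. Of these, 471 failed only the globin limit and are called globin-rich Myl2 spots, and 71 held a count of Myl7 or Sln. Another 185 spots met every limit except that on Myl2 and are called Myl2-low spots. A set of 142 spots with at least 4 counts of Myl7 and Sln together is called Myl7/Sln spots. These 3 sets were formed after the data were seen, and the comparisons with them all use the same Myl2 spots.

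Myl2 ranged from 4 to 57 counts per Myl2 spot with a median of 11, and its summed level was 2086 CPM in Myl2 spots and 1132 CPM in other spots. At the edge of the rule, the 104 spots with 4 counts of Myl2 and the 80 otherwise eligible spots with 3 counts had median depths of 7351.5 and 6842.5 counts. They had 869 and 925 CPM of Myl3, 11401 and 11996 CPM of Myh6 and 90.9 and 83.1 CPM of Nppa. At the globin limit, the 465 spots with 1 globin count had 857 CPM of Myl3, and the 178 with 2 counts had 846 CPM.

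Of the 12 features with the highest CPM in Myl2 spots, 7 were genes of muscle structure and calcium handling. Ttn, titin, which spans the sarcomere as its elastic filament, stood at 42852 CPM in Myl2 spots and 30157 CPM in other spots. Myh6, the fast myosin heavy chain of the adult mouse heart, had 11748 CPM in Myl2 spots and 8479 CPM in other spots. Atp2a2, the pump that returns calcium to the store, had 6844 CPM in Myl2 spots and 5046 CPM in other spots. For Ryr2, the calcium release channel, the values were 6714 CPM in Myl2 spots and 5266 CPM in other spots. Pln, the inhibitor of the Atp2a2 pump, had 3157 CPM in Myl2 spots against 1947 CPM in other spots. Dmd and Cacna1c, the dystrophin gene and the L-type calcium channel gene, had 5617 and 3230 CPM in Myl2 spots, against 4817 and 2310 CPM in other spots. The 12 highest also held the nuclear RNA Malat1, with 15192 CPM in Myl2 spots and 14071 CPM in other spots, and the long non-coding RNA 5730419F03Rik, with 3253 CPM in Myl2 spots and 3274 CPM in other spots. The remaining 3, Ndufs7, Lars2 and Cmss1, had 6015, 4823 and 3250 CPM in Myl2 spots. Their counts per 1000 counts of 28S ribosomal RNA were 5.38, 4.23 and 2.86 in the heart and 7.60, 3.74 and 4.27 in the brain. Ttn, by comparison, had 34.4 per 1000 in the heart and 0.0925 in the brain. Near values in both tissues were not particular to the 3 features. Cacna1c had 2.62 in the heart and 2.34 in the brain, 5730419F03Rik 3.09 and 2.57, and Dmd 4.91 and 9.91. Ndufs7, Lars2 and Cmss1 had a rho with the 28S share of 0.37, 0.27 and 0.21. For Cacna1c, Dmd and 5730419F03Rik it was -0.35, -0.28 and -0.24, and for Myh6 0.11. The levels of Ndufs7, Lars2 and Cmss1 are thus uncertain as a measure of their mRNA.

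**Figure D1:**
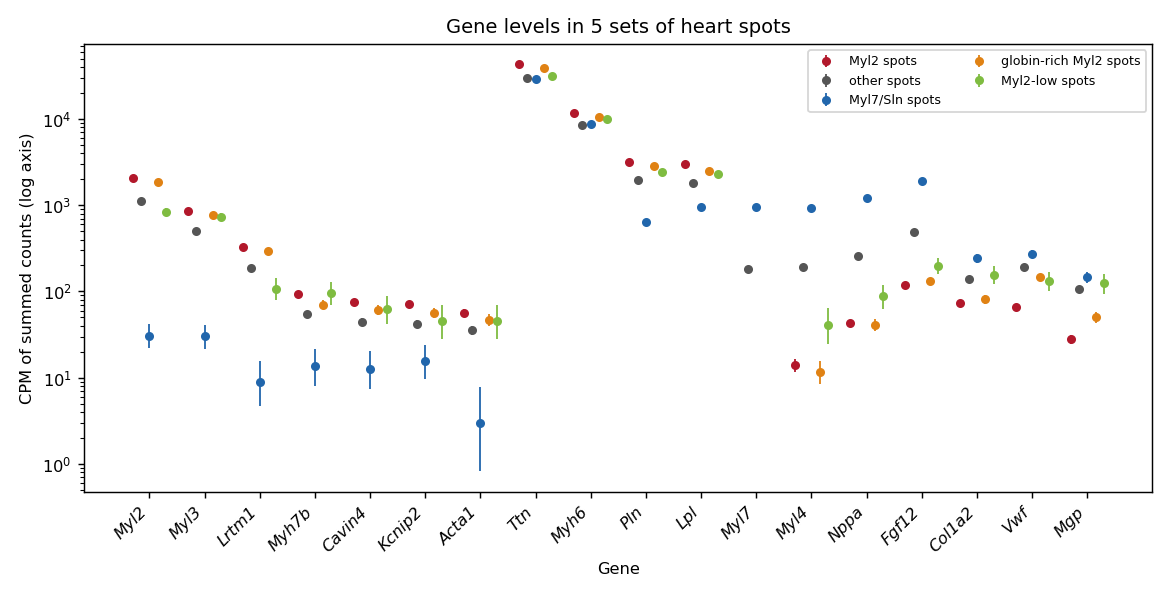
CPM of summed counts (log axis) of 18 genes in 5 sets of heart spots, with exact Poisson 95% intervals; a set with no count of a gene has no point, as for Myl7 in 3 sets that the rule fixed at 0. Myl3 and Lrtm1 stood at 867 and 330 CPM in Myl2 spots and at 30.04 and 9.01 CPM in Myl7/Sln spots, while Nppa and Fgf12 were at 42.8 and 119 CPM in Myl2 spots and at 1197 and 1905 CPM in Myl7/Sln spots.

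Set against all other spots, the Myl2 spots were called higher in 102 of 9033 genes tested (1.13%) and lower in 695 (7.69%). These counts include Myl2 among the higher genes and Myl7, Sln, Hbb-bs and Hbb-bt among the lower, and since the spots were selected on those genes the contrast is a description. The median log2 ratio of all genes tested was -0.10. At a ratio of 2 in place of 1.5, no gene was higher and 101 were lower. With CPM taken over all counts, ribosomal and mitochondrial RNA included, every log2 ratio shifted by -0.16, and 9 genes were higher and 755 lower.

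The genes of the rule and features listed by an ID alone are counted but are left out of the rankings of genes by ratio; 1 such ID, at a ratio of 1.93 (1.79 to 2.08), stood above all genes named here. Among the 10 remaining genes with the largest ratios at 50 CPM or more, Pebp1, which binds and holds back the kinase Raf, was 1.76-fold higher (1.55 to 2.00), with 78.0 CPM in Myl2 spots and 44.4 CPM in other spots. Lrtm1, a leucine-rich repeat membrane protein gene, was 1.75-fold higher (1.64 to 1.86), with 330 CPM in Myl2 spots and 189 CPM in other spots. Myl3, the essential light chain of ventricular myosin, was 1.71-fold higher (1.65 to 1.78), with 867 CPM in Myl2 spots and 507 CPM in other spots. Kcnip2, the partner that brings Kcnd2 channels to the membrane, was 1.69-fold higher (1.48 to 1.93), with 71.2 CPM in Myl2 spots and 42.1 CPM in other spots. Lpl, the lipase that splits blood lipids for uptake, was 1.65-fold higher (1.62 to 1.68), with 2988 CPM in Myl2 spots and 1810 CPM in other spots. Hadhb, a subunit of the mitochondrial trifunctional protein of beta-oxidation, had 601 CPM in Myl2 spots and 365 CPM in other spots. Cavin4, a caveola protein of muscle, Myh7b, a myosin heavy chain gene, Ndufs6, a complex I subunit, and Gm50321 were 1.70, 1.69, 1.66 and 1.68-fold higher.

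The genes with the smallest ratios belonged to blood, atrial muscle and connective tissue. With the rule genes set aside, Hba-a1, an alpha-globin gene, was lowest with 4.27 CPM in Myl2 spots and 84.6 CPM in other spots. Hba-a2, Alas2, the haem synthesis enzyme of red cell precursors, Tent5c and Bpgm, the enzyme that makes bisphosphoglycerate in red cells, had 0.159, 0.0739, 0.0904 and 0.187 of the level of other spots. Myl4, the atrial essential light chain, stood at 13.9 CPM in Myl2 spots and 191 CPM in other spots. Nppa, the atrial natriuretic peptide gene, stood at 42.8 CPM in Myl2 spots against 257 CPM in other spots, and Dkk3, a secreted protein gene on the atrial list, at 17.3 CPM in Myl2 spots against 146 CPM in other spots. The matrix genes Thbs1 and Prg4, which encode thrombospondin and the lubricant proteoglycan of joints and serous surfaces, were at 16.01 and 14.8 CPM in Myl2 spots and at 123 and 106 CPM in other spots.

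Counted by list, most muscle genes stayed under the ratio of 1.5, where 1.13% of all genes tested were higher and 7.69% lower. The other spots include the 542 with at least 4 counts of Myl2, so they are not spots free of muscle. Of 18 sarcomere genes 4 were higher and none lower, with a median log2 ratio of 0.48 beside -0.10 for all genes tested, and Tnnc1, cardiac troponin C, had 608 CPM in Myl2 spots and 395 CPM in other spots. Of 14 genes of fatty acid use 5 were higher and none lower, with a median of 0.58, and Fabp3, the fatty acid carrier of the cytosol, had 887 CPM in Myl2 spots and 558 CPM in other spots. Cpt1b was listed at 0 counts in both sets and is left out of the median. Of 11 genes of the tricarboxylic acid cycle 2 were higher (median 0.51), of 15 nuclear genes of oxidative phosphorylation 1 was higher (median 0.51), and of 5 muscle isoforms of mitochondrial proteins 3 were higher (median 0.60), with none lower in any of the 3 lists. Of 11 calcium-handling genes only Pln passed the size rule, and the list's median was 0.35.

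Of the lists for other tissues, the 12 fibroblast genes had 9 lower and none higher (median -0.81), beside 7.69% of all genes tested, and Col1a2, a chain of type I collagen, had 72.5 CPM in Myl2 spots against 140 CPM in other spots. Of 5 genes of endocardium and valve 3 were lower (median -0.88): Vwf, the clotting factor carrier of endothelium, had 65.8 CPM in Myl2 spots and 191 CPM in other spots, and Npr3, the natriuretic peptide clearance receptor, had 37.4 CPM in Myl2 spots and 97.2 CPM in other spots. Of 10 endothelial genes 1 was higher and none lower (median 0.15), and of 10 leukocyte genes none was called (median -0.17). The capillary gene Fabp4, the called endothelial member, had 321 CPM in Myl2 spots and 207 CPM in other spots. Of 9 genes of smooth muscle and pericytes Rgs5, a pericyte gene, was called higher, with 367 CPM in Myl2 spots and 240 CPM in other spots, while the list's median was -0.17 and 4 of its 9 members lay above the median of all genes. The atrial list without its rule genes had 5 of 7 members lower (median -1.81). Members with too few counts for the size rule count as not called: 1 each of the fibroblast, endothelial and endocardial lists, 2 of the atrial list and 3 each of the leukocyte and smooth muscle lists.

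**Figure D2:**
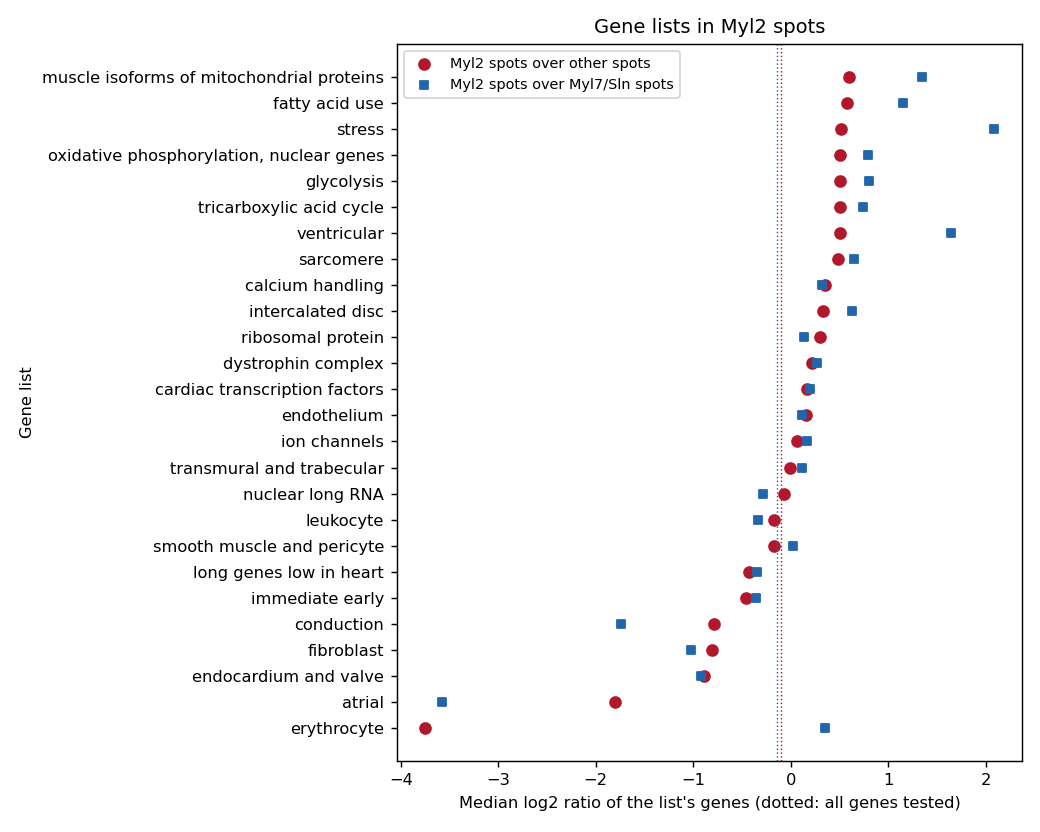
Median log2 ratio of the genes of each list with at least 3 members tested against other spots, for Myl2 spots over other spots (circles) and over Myl7/Sln spots (squares), with dotted lines at the median of all genes tested, -0.10 and -0.14. Lists of muscle metabolism lie right of the dotted lines in both contrasts, and the atrial and fibroblast lists lie left of them; both contrasts use the same Myl2 spots, and the rule genes were left out of the lists.

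Against the 142 Myl7/Sln spots, with a median depth of 21614.5 counts, the same 1476 spots were called higher in 738 of 9096 genes tested (8.11%) and lower in 1176 (12.9%). The median log2 ratio of all genes tested was -0.14. Myl2 itself had 41 counts in the 142 spots, 30.8 CPM. With Myl2 set aside, the largest ratio among genes with a symbol was that of Lrtm1, with 330 CPM in Myl2 spots and 9.01 CPM in Myl7/Sln spots, 36.6-fold higher (20.9 to 70.9). Lrtm1 lies within Cacna2d3 on the opposite strand, and the sources used here do not say whether strand was used in counting. Cacna2d3, a calcium channel subunit gene, went the other way, with 166 CPM in Myl2 spots and 266 CPM in Myl7/Sln spots.

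Myl3 was 28.9-fold higher (21.2 to 40.4), with 867 CPM in Myl2 spots and 30.04 CPM in Myl7/Sln spots. Acta1, the skeletal muscle actin that the heart also makes, had 56.8 CPM in Myl2 spots and 3.004 CPM, from 4 counts, in Myl7/Sln spots, a ratio of 18.9 (7.34 to 69.6). Rpl3l, the muscle form of ribosomal protein L3, had 63.0 CPM in Myl2 spots and 6.76 CPM in Myl7/Sln spots. The other genes with the largest ratios were Lbh, a regulator of transcription, 7.25-fold higher, Myh7b, 6.82-fold, and Cavin4, 5.84-fold, together with the orphan receptor gene Gpr22, the oxoglutarate dehydrogenase-like gene Ogdhl and Ivns1abp, each between 5.56-fold and 5.58-fold. Pln, taken from its list, had 3157 CPM in Myl2 spots and 633 CPM in Myl7/Sln spots.

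The ventricular list bears on the label of the set. Of its 6 members beside Myl2, 3 had enough counts and all 3 were higher, with a list median of 1.65, where 8.11% of all genes tested were higher. The Myl7/Sln spots were chosen for atrial genes. Against other spots 1 of the 3 was higher (median 0.51), against globin-rich Myl2 spots none (median 0.016) and against Myl2-low spots 1 (median -0.27). Myh7 had 241 CPM in Myl2 spots and 56.3 CPM in Myl7/Sln spots. The ventricular regulators Irx4, Irx5 and Hey2 stayed below the 20 CPM of the size rule in both sets, and Irx4 had 12.2 CPM in Myl2 spots and 3.004 CPM in Myl7/Sln spots. Not all members separated the sets alike: the log2 ratios of the 6 ran from 0.07 to 4.83 against Myl7/Sln spots. Against other spots they ran from -0.37 to 0.77. Of 6 genes of the conduction system 4 were tested, none was higher and 2 were lower, where 12.9% of all genes tested were lower. Cntn2, a contactin of Purkinje fibres, had 9.82 CPM in Myl2 spots and 61.6 CPM in Myl7/Sln spots, and Hcn4, the pacemaker channel, had 11.6 CPM in Myl2 spots and 34.5 CPM in Myl7/Sln spots.

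In the other direction Myl4 had 13.9 CPM in Myl2 spots and 937 CPM in Myl7/Sln spots. Nppa had 42.8 CPM in Myl2 spots and 1197 CPM in Myl7/Sln spots, 27.95-fold lower (25.04 to 31.26). Fgf12, a growth factor homologue that binds sodium channels, had 119 CPM in Myl2 spots and 1905 CPM in Myl7/Sln spots. Kcnj3, a subunit of the channel that acetylcholine opens through G proteins in atrial muscle, had 322 CPM in Myl2 spots and 1701 CPM in Myl7/Sln spots. Mybphl, an atrial relative of myosin-binding protein, Sbk3, a kinase gene, Dkk3 and Stard10, a lipid transfer protein gene, had 0.0211, 0.0343, 0.0419 and 0.0837 of the level of Myl7/Sln spots. Scd1, a fatty acid desaturase, Gpx3, a secreted peroxidase, and Ptgfr, a prostaglandin receptor, had 0.0887, 0.0893 and 0.106 of it.

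In this contrast most genes of the lists for energy use were higher. All 15 nuclear genes of oxidative phosphorylation were higher (median log2 0.79), as were 10 of 11 genes of the tricarboxylic acid cycle (0.74), 12 of 14 genes of fatty acid use (1.15), 10 of 13 glycolytic genes (0.80) and all 5 muscle isoforms of mitochondrial proteins (1.35), where 8.11% of all genes tested were higher. With CPM over all counts every log2 ratio of this contrast shifted by -0.18. The lowest log2 ratio of the oxidative phosphorylation list, 0.61, then falls short of the size rule, so these counts depend on the scaling. Counts under that scaling are not given here. Ckm, muscle creatine kinase, had 511 CPM in Myl2 spots and 119 CPM in Myl7/Sln spots. Of 18 sarcomere genes 10 were higher (0.65), and among the 8 that were not, Ldb3 and Nebl, of the Z-disc, had 624 and 566 CPM in Myl2 spots and 644 and 572 CPM in Myl7/Sln spots. Of 12 fibroblast genes 9 were lower (median -1.02): Col3a1, a chain of type III collagen, had 126 CPM in Myl2 spots and 484 CPM in Myl7/Sln spots. The part of these connective tissue transcripts in the differences of muscle genes was not tested.

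The regions just before the start sites of 4 genes that separate or grade these spots are shown with 3 short motifs in capitals. They are Myl3, high in Myl2 spots, Myl7, excluded by the rule, and Acta1 and Nppa, which also vary among Myl2 spots. Of 9 genes searched, these 4 are shown, and each holds a motif. None of the 3 motifs was found in the windows of Myl2, Myh7, Kcnd2 and Lrtm1, and that of Ankrd1 holds an M-CAT alone. Each runs 5′ to 3′ over the 150 bases before the annotated start, from the RefSeq promoter table of build GRCm38.p6. The motifs are the CArG box, bound by serum response factor, M-CAT (CATTCC), bound by TEAD factors, and a TATA box (TATAAA), searched on both strands. The positions are chr9:110763528-110763677 on the plus strand for Myl3, chr11:5898783-5898932 on the minus strand for Myl7, chr8:123894776-123894925 on the minus strand for Acta1 and chr4:148000572-148000721 on the plus strand for Nppa.
Myl3: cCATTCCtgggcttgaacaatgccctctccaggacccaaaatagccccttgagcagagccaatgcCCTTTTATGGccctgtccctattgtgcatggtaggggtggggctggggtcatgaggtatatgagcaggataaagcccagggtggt
Myl7: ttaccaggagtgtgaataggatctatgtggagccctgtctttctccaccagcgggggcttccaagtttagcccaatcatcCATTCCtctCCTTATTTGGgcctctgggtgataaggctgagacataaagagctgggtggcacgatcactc
Acta1: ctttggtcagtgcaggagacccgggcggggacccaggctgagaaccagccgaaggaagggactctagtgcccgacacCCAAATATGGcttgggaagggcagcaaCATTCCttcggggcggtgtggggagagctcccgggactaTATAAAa
Nppa: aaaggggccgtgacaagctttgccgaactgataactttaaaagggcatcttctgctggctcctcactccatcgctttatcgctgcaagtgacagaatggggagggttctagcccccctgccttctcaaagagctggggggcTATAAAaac

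Of the 9 genes 3 hold a CArG box, at 85, 61 and 73 bases before the start in Myl3, Myl7 and Acta1, and each of these windows also holds an M-CAT. Acta1 and Nppa hold the letters of the TATA box. Of 32851 promoters of the table, 0.916% hold a CArG box in the same 150 bases, 7.59% an M-CAT and 7.57% a TATA box. The genes searched were chosen with their results known, so the counts are no comparison with these shares, and a match is a description of letters only.

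Mitochondrial transcripts were a larger part of the RNA in Myl2 spots. The 13 protein-coding genes of the mitochondrial genome made up 4.06% of counts outside ribosomal RNA (4.05 to 4.07) in Myl2 spots and 2.94% (2.93 to 2.95) in other spots, a log2 ratio of 0.47. The share was 2.73% in Myl7/Sln spots, 3.18% in globin-rich Myl2 spots and 5.67% in Myl2-low spots. The 13 genes had log2 ratios between 0.34 and 0.57 on the CPM scale, with a median of 0.49. Mitochondrial ribosomal RNA took 6.78% of all counts in Myl2 spots and 5.16% in other spots, and nuclear ribosomal RNA took 52.5% in Myl2 spots and 49.96% in other spots.

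Fewer genes were called against the globin-rich Myl2 spots than against any other set. The Myl2 spots were called higher in 6 of 8627 genes tested (0.0695%) and lower in 77 (0.893%). None of the 6 reached 50 CPM. Myl3 had 867 CPM in Myl2 spots and 775 CPM in globin-rich spots, and Ttn had 42852 CPM in Myl2 spots and 38686 CPM in globin-rich spots. Beside the red cell genes Alas2, Tent5c and Bpgm, the lowest ratios included Vwf, 2.25-fold lower (2.00 to 2.52), with 65.8 CPM in Myl2 spots and 148 CPM in globin-rich spots. Npr3, with 37.4 CPM in Myl2 spots and 80.7 CPM in globin-rich spots, Mgp, an inhibitor of calcification in vessel walls, with 27.8 CPM in Myl2 spots and 50.1 CPM in globin-rich spots, and the interferon-induced Rsad2, with 21.8 CPM in Myl2 spots and 54.1 CPM in globin-rich spots, were lower as well, as were Mocos, Ifngas1 and Gm39317 at 0.529, 0.537 and 0.556 of the level of globin-rich spots. Of the 5 genes of endocardium and valve 3 were lower, with a median of -0.62.

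The Myl2-low spots were shallow, with a median of 6831 counts. Against them the Myl2 spots were called higher in 521 of 8919 genes tested (5.84%) and lower in 951 (10.7%). The part of depth in these counts was not tested. Myl3 was not called, with 867 CPM in Myl2 spots and 727 CPM in Myl2-low spots, while Lrtm1 was 3.08-fold higher (2.33 to 4.15), with 330 CPM in Myl2 spots and 107 CPM in Myl2-low spots. Dnaja4, a co-chaperone, Eef1b2, an elongation factor subunit, Apex2, Vdac3, a channel of the outer mitochondrial membrane, Ogdhl, Abhd12, Wdtc1, Fitm2 and Cct8 were between 1.98-fold and 2.61-fold higher, on 12 to 24 counts each in Myl2-low spots. The lowest ratios were mostly those of matrix genes, among them Prg4, Mgp, Prelp, Loxl1, Col2a1 and, outside the matrix, Gm39317; Dkk3 was also lower. Thbs1 had 16.01 CPM in Myl2 spots and 127 CPM in Myl2-low spots, and Igfbp5, a growth factor binding protein gene, had 83.5 CPM in Myl2 spots and 612 CPM in Myl2-low spots. Postn, periostin, had 22.7 CPM in Myl2 spots and 79.4 CPM in Myl2-low spots. Of 12 fibroblast genes 9 were lower, with a median of -1.01.

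Among the Myl2 spots themselves the mitochondrial mRNA share ranged from 0.495% to 13.5%, with a median of 4.403% and quartiles of 3.29% and 6.77%. It moved with depth: across the 1476 spots the Spearman rho with total counts was -0.66, and both measures come from the same counts. Over 5 groups of nearly equal size by depth, with median depths of 6873, 9708, 13101, 19426 and 30424 counts, the share was 6.71%, 6.05%, 4.86%, 3.67% and 3.08%. Kcnd2 ran in the opposite sense over the same groups, with 430, 449, 565, 710 and 906 CPM. Myl2 had 2868 CPM in the shallowest group and 1865 CPM in the deepest, where the rule asks for 4 counts whatever the depth.

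**Figure D3:**
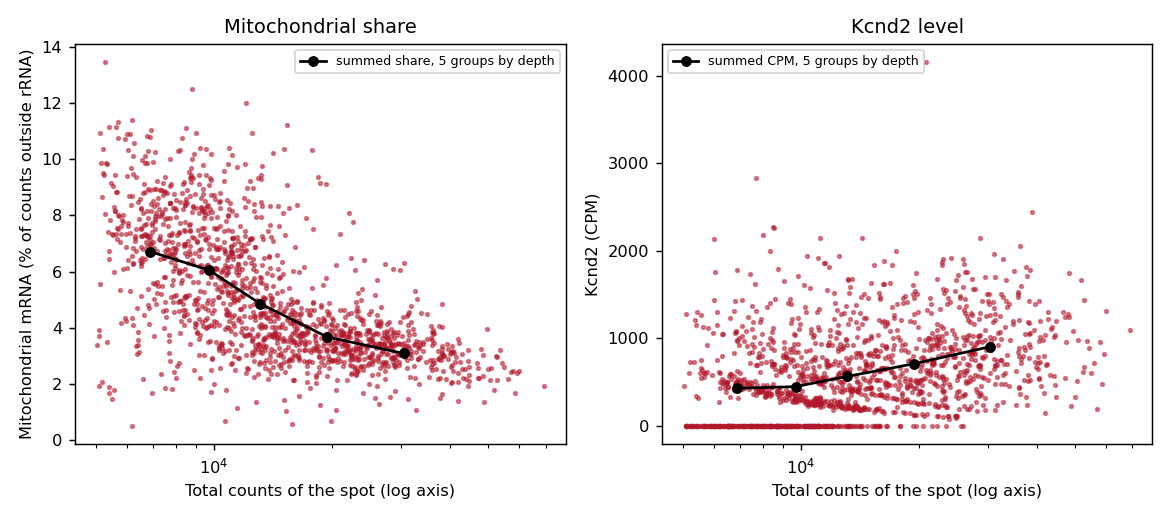
Mitochondrial mRNA share (left, percent of counts outside ribosomal RNA) and Kcnd2 level (right, CPM) of each of the 1476 Myl2 spots against its total counts (log axis); the black line joins the summed values of 5 groups by depth. The share is 6.71% in the shallowest group and 3.08% in the deepest, and Kcnd2 is at 430 CPM in the shallowest and 906 CPM in the deepest.

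Ranked by mitochondrial share and split in 3, the 492 highest Myl2 spots had a share of 7.67% and the 492 lowest 2.79%, with median depths of 8702 and 22387 counts. The high spots were called higher in 238 of 8585 genes tested (2.77%) and lower in 448 (5.22%). With CPM over all counts every log2 ratio shifted by -0.47, and the counts were 11 higher and 2036 lower. Their highest ratios included the cartilage collagen gene Col2a1 and the nuclear respiratory chain gene Cox6b1, with 604 CPM in the high spots and 196 CPM in the low spots, and also Mocos, Gm39317, Tmem50a, 0610012G03Rik, Gm50311 and 4933436E23Rik. Mocos had 443 CPM in the high spots and 134 CPM in the low spots, and it had 1061 CPM in barcodes of the heart section with under 500 counts, so it moved with low depth. At the other end Myh11, the myosin of smooth muscle, had 33.7 CPM in the high spots and 84.1 CPM in the low spots, and Lrtm1 had 197 CPM in the high spots and 376 CPM in the low spots. Scara5, a ferritin receptor gene, Gm12295, Dennd4a, Pfkfb1 and Sgk3, a kinase gene, had between 0.412 and 0.484 of the level of the low spots. Since depth separates these 2 sets, spots were also ranked within 10 bins of total counts, an arrangement chosen after the data were seen.

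With depth matched, the 490 high and 490 low spots had median depths of 13033.5 and 13143.5 counts and shares of 5.54% and 2.82%. The counts that CPM uses were not matched, with 2754449 in the high spots and 3543191 in the low spots. Median features were 2506.5 in the high spots and 2986.5 in the low spots. The high spots were called higher in 70 of 8617 genes (0.812%) and lower in 223 (2.59%). Of the higher genes 33 were also among the 238 above, 47.1% of the matched list and 13.9% of the unmatched, and of the lower genes 92 were shared, 41.3% of the matched list and 20.5% of the unmatched. Tmem50a, a membrane protein gene, had 228 CPM in the high spots and 121 CPM in the low spots, 1.89-fold higher (1.67 to 2.14). Myo3a, a class of myosin with a kinase domain, had 1886 CPM in the high spots and 1125 CPM in the low spots. Wnt7b, Creg1, Syp, Lman2, Trmt61b and Serf2 were between 1.57-fold and 1.72-fold higher. Lrtm1, lower in the high spots without matching, had a log2 ratio of 0.11 with it.

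Among the lower genes with depth matched, Eya2, a phosphatase and cofactor of transcription, had 27.95 CPM in the high spots and 58.7 CPM in the low spots. Emp1, an epithelial membrane protein gene, had 25.4 CPM in the high spots and 50.8 CPM in the low spots, and Myh11 had 46.1 CPM in the high spots and 77.9 CPM in the low spots. Ppp4r1l-ps, Dennd4a, Ctdspl, Mei4 and 4930578G10Rik had between 0.585 and 0.604 of the level of the low spots. Of all genes tested, 0.812% were higher and 2.59% lower. No gene of the sarcomere, fatty acid, tricarboxylic acid cycle or oxidative phosphorylation lists passed the size rule. Their medians were 0.21, 0.27, 0.25 and 0.22, beside -0.07 for all genes tested, and a scaling over all counts shifts each of these values by -0.27. The lowest group stood apart: over 5 depth-matched groups from the lowest share to the highest, Ttn had 36179, 43713, 44977, 45786 and 45306 CPM, and Lpl had 2344, 2956, 3201, 3332 and 3291 CPM. Col1a2 had 98.8 CPM in the lowest group and between 58.8 and 68.8 CPM in the other 4. Vwf had 92.4 CPM in the lowest group and between 54.4 and 62.8 CPM in the others. Kcnd2 lay between 687 and 751 CPM in all 5 groups. Cox6b1, at 604 and 196 CPM in the unmatched split, had 216, 295, 353, 330 and 347 CPM over these groups.

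Kcnd2 had 729 CPM in Myl2 spots (711 to 746) and 567 CPM in other spots, and 452 CPM in Myl7/Sln spots. Globin-rich Myl2 spots had 690 CPM of Kcnd2 (664 to 717), and the shallow Myl2-low spots had 382 CPM. Within the Myl2 spots Kcnd2 ranged from 0 to 51 counts, and 292 spots had none. In those spots Kcnd2 was not detectable at their depth. The 492 Myl2 spots highest in Kcnd2 had 1182 CPM and the 492 lowest 132 CPM, at median depths of 18414 and 10672 counts. The high spots were called higher in 126 of 8545 genes tested (1.47%) and lower in 90 (1.05%), and with CPM over all counts, a log2 shift of 0.17, in 78 and 9. Kcnj3 was 1.57-fold higher (1.42 to 1.74), with 376 CPM in the high spots and 239 CPM in the low spots. Pfkfb1, an enzyme that sets the level of a glycolytic activator, had 63.5 CPM in the high spots and 31.7 CPM in the low spots. Sec24a, a coat protein gene of vesicles, Gprasp1, Herpud2 and Cntn6, a contactin, were between 1.56-fold and 1.66-fold higher, and Lrtm1 was 2.00-fold higher, with 404 CPM in the high spots and 202 CPM in the low spots. A530058N18Rik was 1.62-fold higher, and its symbol is shared by 2 features. The lowest ratios were those of Nppa, Myh7, Acta1 and Ankrd1, at 0.291, 0.367, 0.424 and 0.441, followed by Gm39317, Cox6b1, Mocos and Ptgds, at 0.525, 0.537, 0.545 and 0.554.

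For Kcnd2, depth was matched within 10 bins of the counts that CPM uses, in place of total counts. With depth matched, the 490 Kcnd2-high and 490 Kcnd2-low spots had 1249 and 281 CPM of Kcnd2, median depths of 12797 and 13290 counts and mitochondrial shares of 4.17% and 3.90%. The high spots were called higher in 55 of 8548 genes (0.643%) and lower in 58 (0.679%). Of the higher genes 32 were shared with the unmatched split, 58.2% of the matched list and 25.4% of the unmatched, and of the lower genes 19, 32.8% of the matched list and 21.1% of the unmatched. The 5 lowest ratios at 50 CPM or more were those of Nppa, Myh7, Acta1, Myot and Ankrd1. Gm39317, Cox6b1, Mocos and Ptgds, called lower without matching, were not called with it. Over 5 depth-matched groups by Kcnd2, Cox6b1 lay between 291 and 319 CPM, Mocos between 184 and 211 CPM and Gm39317 between 180 and 190 CPM. Ptgds had 51.1, 63.4, 51.4, 43.0 and 39.3 CPM from the lowest of these groups to the highest.

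Nppa had 27.9 CPM in the Kcnd2-high spots and 67.4 CPM in the Kcnd2-low spots, 0.415 of the level (0.319 to 0.535). Myh7, the slow myosin heavy chain of the fetal ventricle and of the stressed adult mouse heart, had 163 CPM in the high spots and 352 CPM in the low spots, a ratio of 0.462 (0.415 to 0.513). Acta1 had 39.2 CPM in the high spots and 83.9 CPM in the low spots, a ratio of 0.467 (0.374 to 0.581). Ankrd1, a titin-bound ankyrin repeat protein induced by stretch, had 124 CPM in the high spots and 239 CPM in the low spots, a ratio of 0.518 (0.457 to 0.586). Myot, myotilin of the Z-disc, had 27.0 CPM in the high spots and 54.0 CPM in the low spots. Of the 5 genes on the stress list, Myh7, Acta1, Ankrd1 and Nppb, the B-type natriuretic peptide gene, were lower, where 0.679% of all genes were, with a list median of -1.09 beside -0.01. Nppb had 8.35 CPM in the high spots and 23.8 CPM in the low spots. The exception was Xirp2, a protein of the intercalated disc, with 1352 CPM in the high spots and 1662 CPM in the low spots. Sox13, Myh11 and P3h2 were lower too, at 0.618, 0.627 and 0.642 of the level in the low spots.

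In the other direction Pfkfb1 had 63.6 CPM in the Kcnd2-high spots and 33.7 CPM in the Kcnd2-low spots, 1.89-fold higher (1.48 to 2.41). Its span overlaps Apex2 on the opposite strand, as those of Myh7 and Acta1 overlap Mhrt and Gm20388, and reads of such pairs cannot be told apart without strand. Sort1, sortilin, had 68.7 CPM in the high spots and 45.1 CPM in the low spots, and Whrn, a scaffold protein gene, had 54.0 CPM in the high spots and 35.6 CPM in the low spots. Pfkfb1, Sort1 and Whrn were the only genes at 50 CPM or more called higher with depth matched. Lrtm1 and Kcnj3, called higher without matching, did not pass the size rule with it. None of the 18 sarcomere genes, the 14 genes of fatty acid use or the 15 genes of oxidative phosphorylation was called in either direction. Of the 10 endothelial and the 12 fibroblast genes none was called, with medians of -0.07 and -0.29. Of all genes tested, 0.643% were higher and 0.679% lower. At such shares a list of these sizes mostly holds no call, so these zeros say little about the lists.

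The 5 depth-matched groups show the shape of the gradient. From the lowest Kcnd2 group to the highest, at 196, 440, 660, 921 and 1435 CPM of Kcnd2, Myh7 had 409, 257, 204, 179 and 153 CPM. Ankrd1 had 285, 165, 154, 129 and 117 CPM, and Nppa had 85.4, 37.6, 27.9, 36.6 and 25.8 CPM. The largest step of all 3 genes was between the lowest group and the next. The lowest group also had the highest level of some genes of other cell types, picked after their values were seen. Myh11, of smooth muscle, had 106 CPM there and between 46.7 and 56.9 CPM in the other 4 groups. Bgn, a matrix proteoglycan gene, had 74.3 CPM there and between 46.1 and 53.6 CPM in the others. Col1a2 had 88.5 CPM there and between 60.8 and 74.7 CPM in the others. Pecam1, of endothelium, had 158 CPM in the lowest group and between 121 and 138 CPM in the others, while Lpl had 2651 CPM in the lowest group and between 3019 and 3112 CPM in the others. Of Myh11, Bgn, Col1a2 and Pecam1, only Myh11 had an interval in the lowest group (91.8 to 122) clear of the other groups. Eln, a matrix gene, had 69.6, 64.5, 55.2, 42.0 and 44.7 CPM, with no break after the lowest group. Vwf lay between 55.3 and 74.5 CPM in the 5 groups with no order. The part of these cell types in the gradient was not tested. Lrtm1 had 255, 316, 333, 366 and 381 CPM, and Kcnj3 had 231, 315, 328, 336 and 401 CPM. Myl2 stayed between 1983 and 2184 CPM, Ttn between 41202 and 44361 CPM, and Cacna2d3, opposite Lrtm1, between 145 and 183 CPM with no order. Of other genes tied to the wall's layers or inner surface, Kcnip2 lay between 61.6 and 80.7 CPM, and Npr3 had 53.8 CPM in the lowest group and between 27.4 and 36.1 CPM in the others. Irx5, a repressor of Kcnd2 towards the inner wall in the mouse, had 11.6 CPM in the lowest group and 5.38 CPM in the highest. These levels are below what the size rule asks for, on 22 and 10 counts, and their intervals overlap (7.27 to 17.6 and 2.58 to 9.89). Irx3 lay between 14.9 and 23.7 CPM, Hey2 between 4.82 and 10.7 CPM and Tbx5 between 54.8 and 67.5 CPM, with no order. Gja5 had 49.5 CPM in the lowest group and between 32.8 and 39.6 CPM in the others.

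**Figure D4:**
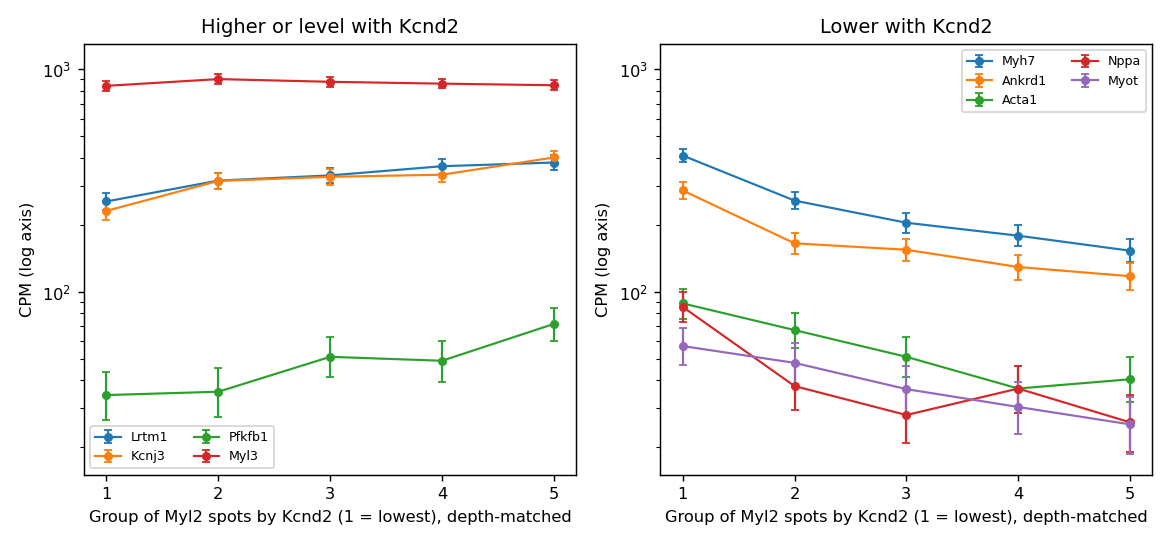
CPM (log axis) with exact Poisson 95% intervals in 5 depth-matched groups of the Myl2 spots by Kcnd2, from lowest (1) to highest (5). Lrtm1 and Kcnj3 stand at 255 and 231 CPM in the lowest group and at 381 and 401 CPM in the highest, and Myh7 and Ankrd1 at 409 and 285 CPM in the lowest and at 153 and 117 CPM in the highest.

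These ratios were lowest in deep spots. Among matched spots of 20000 counts or more, 138 high and 141 low, Nppa had 11.0 CPM in the high spots and 68.3 CPM in the low spots, a ratio of 0.162 (0.0941 to 0.264). There Myh7, Ankrd1 and Acta1 had ratios of 0.371 (0.316 to 0.434), 0.386 (0.318 to 0.466) and 0.226 (0.146 to 0.340). Among spots of 10000 to 20000 counts the ratios were 0.709 for Nppa (0.460 to 1.08), 0.490 for Myh7 (0.407 to 0.587), 0.596 for Ankrd1 (0.488 to 0.725) and 0.557 for Acta1 (0.397 to 0.774). Among spots of 5000 to 10000 counts only Myh7 of these 4 genes had an interval below 1, with a ratio of 0.732 (0.566 to 0.945). There the intervals of Nppa (0.434 to 1.25), Ankrd1 (0.667 to 1.33) and Acta1 (0.727 to 2.17) held 1. At that depth the 150 low spots held 1 count of Kcnd2 in all. Pfkfb1, higher over all depths, had ratios of 2.28 (1.67 to 3.15) in the deep spots, 1.63 (1.03 to 2.61) at 10000 to 20000 counts and 0.865 (0.369 to 2.03) at 5000 to 10000 counts. Whether the ratios differ between depths was not tested. These intervals cover counting error only. Myh7 and Ankrd1 varied more than counting alone gives, with variance over mean of 1.68 and 1.61 across Myl2 spots thinned to equal counts.

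Myh7, Ankrd1, Acta1 and Nppa were each found in many spots. Myh7 had a count in 910 of 1476 Myl2 spots, Ankrd1 in 714, Acta1 in 337 and Nppa in 231. The 10 spots richest in Nppa held 22.7% of its 401 counts, and the 10 richest in Myh7 held 10.9% of its 2256 counts. After 1210 of the spots were thinned to 2500 counts each outside ribosomal RNA and the mitochondrial genome, 120 held a count of Nppa and 1090 held none. The 120 spots had a mean of 1.15 counts of Myh7 and the 1090 spots 0.574, a ratio of 2.00 (1.65 to 2.41), and for Ankrd1 the means were 0.825 and 0.447, a ratio of 1.85 (1.47 to 2.30). Kcnd2 had means of 1.34 counts in the 120 spots and 1.69 in the 1090, a ratio of 0.794 (0.672 to 0.934). Myl2 had 5.44 counts in the 120 spots and 5.51 in the 1090. For Acta1 the ratio was 1.42 (0.886 to 2.20), for Nppb 2.02 (0.907 to 4.06) and for Myot 1.21 (0.603 to 2.22), with intervals that hold 1. At equal depth, spots with a count of Nppa thus held more Myh7 and Ankrd1 and less Kcnd2, while the Myl2 means were close.

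Over those 1210 thinned spots most genes varied little more than counting alone gives. Of 2549 genes with a mean of at least 0.2 counts, the median ratio of variance to mean was 1.06, where counting error alone gives 1, and 20 genes exceeded 1.5. The highest values were those of Ttn (5.58), Ndufs7 (3.32), Malat1 (2.62), Myh6 (2.38), Cacna1c (2.00), Ryr2 (1.96), Slc8a1, the sodium-calcium exchanger (1.80), Fgf13, a sodium channel partner (1.80), Pde4d, a cyclic AMP phosphodiesterase (1.77), and Myh7 (1.68). High ratios came mostly with high means, which make extra variance visible, but Myh7 had a mean of only 0.631 counts. Kcnd2 ranked 20 with 1.51, and Myl2, which the rule holds above a minimum, had 1.12. The genes with the highest positive Spearman rho with Kcnd2 over these spots were Lrtm1 (0.17), Fgf13 (0.14), Cacna1c (0.14), Cacnb2 (0.12), Kcnj3 (0.11) and Ryr2 (0.11). The lowest negative values were larger in size: Ndufs7 (-0.20), Lars2 (-0.19), Gm19951 (-0.18), Gm17344 (-0.15), Cmss1 (-0.15) and Zfhx3 (-0.15), with 3 features whose levels are uncertain among them. Over all 1476 spots, before thinning, Kcnd2 CPM had a rho of -0.26 with the share of nuclear ribosomal RNA. In sparse counts these values are weak and are given as a description.

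**Figure D5:**
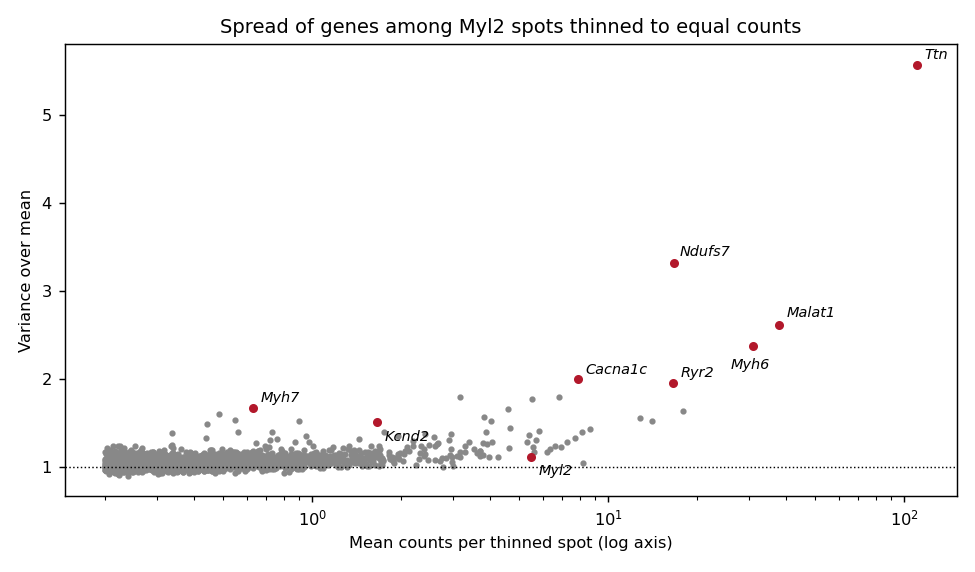
Variance over mean of 2549 genes across 1210 Myl2 spots thinned to 2500 counts, against the mean count (log axis), with a dotted line at 1, the value counting error alone gives. Ttn lies highest at 5.58, Myh7 and Kcnd2 stand at 1.68 and 1.51 at low means, and the median of all genes is 1.06.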

How the data were processed

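Per the submitters' processing notes, STARsolo and build mm39 were used; the version is not given in the sources used here. The deposited values are counts per feature and barcode, whole numbers made by the authors; whether molecular tags, introns or strand were used is not stated. The same 4992 barcodes occur in both sections. Spots are taken as deposited, with no doublet caller and no positions. Counts were summed per set and scaled outside 37 ribosomal and 37 mitochondrial features (Python 3.11.15, numpy 2.4.6, scipy 1.17.1). Ratios have exact conditional binomial intervals, sums exact Poisson intervals. The comparison was tested on simulated data. Counts are not known to be separate molecules. The members, the 32 gene lists and the rules were chosen with earlier results of these data known. Genes were named by rule: the 12 highest CPM, the 10 largest and 10 smallest ratios past the size rule from 50 CPM up (8 for the splits within the set), the leading or opposed members of each list, the 10 largest variances over mean and the 6 highest positive correlations with Kcnd2. Named outside it, after their values were seen, were the 6 lowest correlations and other cell types' genes in the Kcnd2 groups. So were Cacna2d3, Irx3, Irx5, Hey2, Tbx5, Gja5, Nppb, Hcn4, Cntn2, list genes of lower level and Kcnj3 against Myl7/Sln spots. A gene that the rule named in the mitochondrial split is not reported here. Overlaps come from GENCODE M21, which is of an older build.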

Additional observations from a re-analysis of the deposited data

How the results depend on the processing

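The number of Myl2 spots lay between 1026 and 1947 over 6 alternatives to the rule. Scaling over all counts gave 9 genes higher in Myl2 spots than in other spots, a mitochondrial log2 ratio of 0.33, 11 higher and 2036 lower in the mitochondria-high spots, and 78 higher and 9 lower in the Kcnd2-high spots. Weighing each spot the same gave 178 higher, 1375 lower and 0.47 for Myl2 spots, and 203 higher and 143 lower for Kcnd2. Spots of 5000 to 10000 counts alone gave 690, 1260 and 0.76 for Myl2 spots, 55 and 66 for the mitochondrial split, and 16 and 19 for Kcnd2. The mitochondrial log2 ratio was 0.49 from 8000 counts up and 0.52 with 3 counts of Myl2. With 8 counts of Myl2 it was 0.16, with 31 genes higher, 433 lower and 151 higher in the mitochondria-high spots. Thinning to 5000 counts gave 432, 1478 and 0.55. A floor of 5 CPM, or none, gave 173 and 1862. At 2-fold the counts were 0 and 101 for Myl2 spots, 32 and 52 for the mitochondrial split and 5 and 8 for Kcnd2. Splits in 2 parts gave 94 and 122 for mitochondria and 36 and 37 for Kcnd2, and ranking Kcnd2 after thinning gave 74 higher. Matching depth, chosen after the data were seen, gave 70 and 223, and 55 and 58. The causes were not tested. Direction changed in 9 of 1132 values of lists and named genes. In spots of 5000 to 10000 counts the log2 ratios with the mitochondrial share were 0.054 for the epicardial list, 0.15 for Lrtm1 and 0.048 for Myh11. With Kcnd2 they were 0.024 for the stress list, 0.35 for Acta1, 0.071 for Ankrd1, 0.013 for Gm39317 and -0.14 for Pfkfb1. With depth matched, Lrtm1 had 0.11 with the mitochondrial share. No paired analysis was possible because there is 1 section of each tissue. With 1 heart, no value has a replicate error, and spots of low depth cannot show low genes.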
